A study of Mus musculus with 8 samples.

Results

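Secreted antagonists of bone morphogenetic proteins (BMPs) and activins were followed by RNA sequencing in mouse cardiac fibroblasts cultured in osteogenic differentiation medium. The genes Grem1, Nog, Chrd, Chrdl1, Fst, Fstl1, Fstl3, Nbl1 and Bmper were chosen by symbol for what their proteins do, 9 of the 24015 genes in the deposited table. The cells came from 8-week-old wild-type C57BL/6J mice. They were collected after 7, 14 and 21 days in differentiation medium and, as the untreated control, on day 0 before the medium was added, with 2 libraries at each of the 4 times. No time-matched cells without the medium were analysed here, so the medium and the days in culture cannot be told apart. Nothing in the labels ties the paired libraries of a day to separate mice or cultures, so the p-values reflect only how far these samples spread, and that spread may be technical.

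BMPs and activins are secreted dimers that assemble receptor serine-threonine kinases on the cell surface and signal through Smad proteins in the nucleus. Antagonists act outside the cell by wrapping around the ligand and covering the surfaces that receptors need. Noggin, the chordins and the gremlin and DAN family mainly capture BMPs, whereas follistatin and its relative Fstl3 bind activins almost irreversibly. In connective tissue these proteins set how far BMP signals reach, and osteoblast differentiation is among the processes they restrain.

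The libraries held 13399313 to 21883498 reads assigned to genes, and values are given as normalized counts, meaning reads per gene divided by a size factor for each library. The 10 fibroblast markers each reached 10 normalized counts in at least 1 library, and their sum ranged from 712490 to 719123 normalized counts on day 0, 481582 to 507586 on day 7, 322572 to 366908 on day 14 and 471493 to 539298 on day 21. Among these markers 5, 4 and 5 were higher and 3, 5 and 3 lower on days 7, 14 and 21 than on day 0. Dcn averaged 9270 on day 0 and 53004 on day 14, whereas Col1a2 averaged 157633 and 42790. Over all tested genes 27.5, 35.2 and 29.8% were higher and 27.9, 35.6 and 29.5% lower on those days, at an adjusted p below 0.05. The marker counts of this paragraph stand beside these shares. Of 7 osteoblast markers 4 were tested, and 1, 1 and 2 were higher and 2, 2 and 1 lower on days 7, 14 and 21 than on day 0. Among them Alpl, alkaline phosphatase, averaged 491 ± 197 normalized counts on day 21, against 167 ± 59.5 on day 0 (SD, n = 2 each; log2 fold change 1.53; limma adjusted p = 5.11e-04). Alpl averaged 84.1 on day 7. Col1a1 averaged 249947 normalized counts on day 0, 68602 on day 7, 22417.5 on day 14 and 54047 on day 21. Dmp1 stood at 8.55 on day 21, against 1.05 on day 0, but entered the test only through its later days. Sp7 and Ibsp were listed at 0 in every library. The 9 macrophage markers in the table, Lyz2 and Ptprc among them, were all higher on days 7, 14 and 21 than on day 0, and their sum ranged from 959 to 1043 on day 0, 8451 to 10478 on day 7, 18375 to 33980 on day 14 and 17203 to 18185 on day 21. Ptprc, Fcgr1, Tyrobp and Mrc1 fell below 10 normalized counts in at least 1 day 0 library and entered the test through later days. A difference from day 0 was thus built into their selection. Endothelial markers summed to 614 to 645 on day 0, 558 to 566 on day 7, 306 to 402 on day 14 and 296 to 443 on day 21, with 0 higher and 1, 3 and 4 of 6 tested lower on days 7, 14 and 21 than on day 0. Among those tested, Cldn5 reached 10 normalized counts only in both day 0 libraries and library 1 of day 7, so it needed day 0 to enter the test. Mesothelial and epicardial markers summed to 1169 to 1277 on day 0, 846 to 856 on day 7, 1595 to 1671 on day 14 and 430 to 957 on day 21. Of the 5 tested, 2, 1 and 1 were higher and 3 lower on days 7, 14 and 21 than on day 0. Krt19, Lrrn4 and Upk3b were lower on each later day, while Msln was higher. Wt1, the other gene tested, averaged 6.85 normalized counts on day 0, 17.5 on day 7, 11.1 on day 14 and 11.8 on day 21. Krt19 entered the test only through day 0 and Wt1 only through later days. Krt8, which was not tested, was listed at 0 in every library. Smooth muscle and pericyte markers summed to 10334 to 10749.7 on day 0, 13664 to 14171 on day 7, 5559 to 6845 on day 14 and 10657 to 15022 on day 21. Of 6 such markers tested, 3, 2 and 4 were higher and 0, 1 and 1 lower on days 7, 14 and 21 than on day 0. Among them Kcnj8 stood at 1.59 and 3.92 on day 0 and entered the test only through later days, so a difference from day 0 was built into its selection. The part of these markers in any antagonist result was not tested, and in such bulk samples fewer cells of a type and less RNA per cell cannot be told apart. The cardiac troponin gene Tnnt2 also stood between 5849 and 28771 normalized counts after day 0, against 1207 and 1134 on day 0, although the cardiomyocyte myosin gene Myh6 had no reads.

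Of the 9 antagonists, 4 were higher and 3 lower than on day 0 at each of days 7, 14 and 21. Chrdl1, Fst, Chrd and Nbl1 rose, and Fstl1, Bmper and Fstl3 fell. Grem1 was tested and not called, and Nog had too few reads for the test, which required at least 10 normalized counts in at least 2 libraries. A call means an adjusted p below 0.05 in a limma fit of log2(normalized count + 1) over all 8 libraries, with the adjustment over 13527 genes. Change was widespread, with 55.4% of tested genes called on day 7 over day 0 (27.5% higher and 27.9% lower). The share was 70.7% on day 14 over day 0 (35.2% higher and 35.6% lower) and 59.4% on day 21 over day 0 (29.8% higher and 29.5% lower). The median log2 fold change of the 8 tested antagonists was 0.66, 0.70 and 1.00 on days 7, 14 and 21 over day 0, beside -0.01, 0.00 and 0.00 over all tested genes. Each median is the midpoint of the uncalled Grem1, at 0.29, 0.30 and 1.00, and the next gene, at 1.03, 1.10 and 1.00. With single libraries left out Grem1 ranged from -0.60 to 1.18 on day 7 and from 0.11 to 1.89 on day 21 over day 0. The medians therefore do not describe a shift of the whole group. The 3 comparisons with day 0 use the same day 0 libraries.

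**Figure D1:**
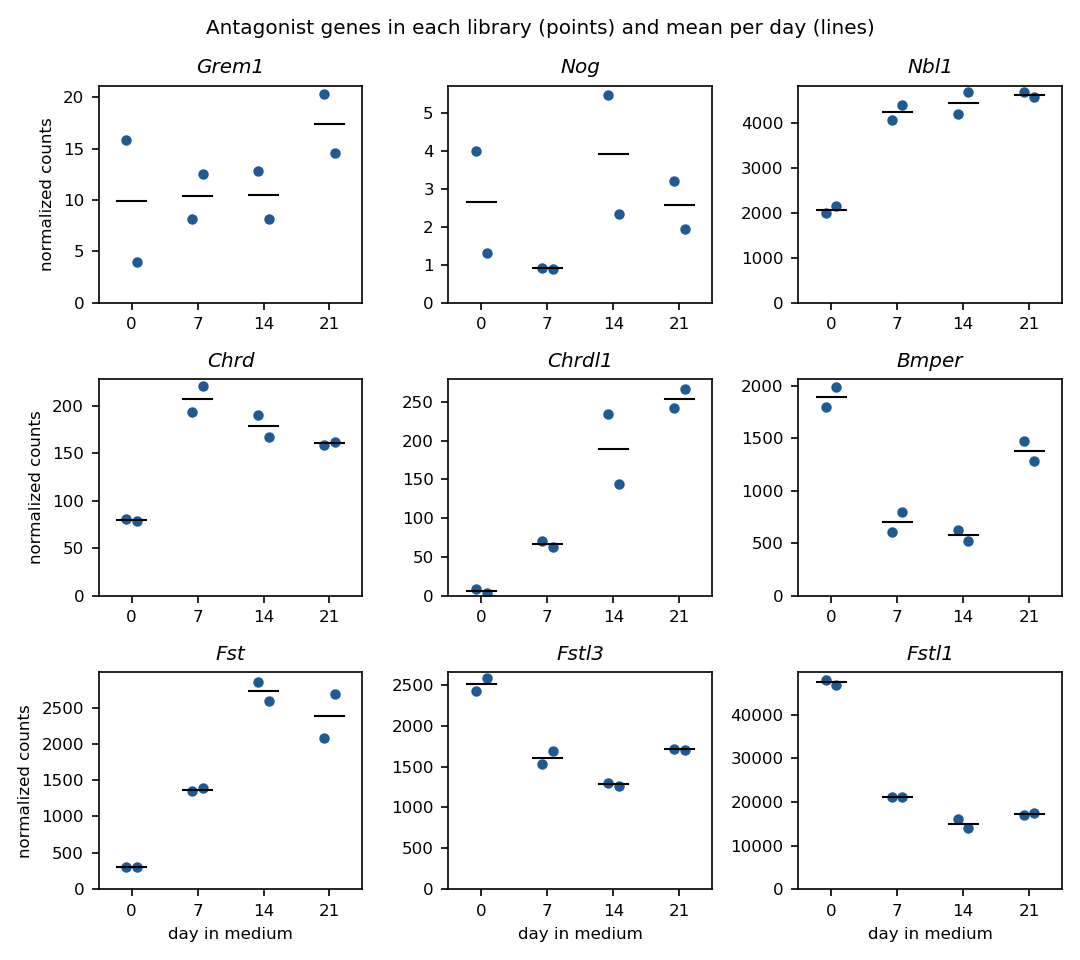
Normalized counts (vertical axes, each from 0) of the 9 antagonist genes against day in medium; each point is 1 library and each line the mean of the 2 libraries of a day. Chrdl1 and Fst stood above their day 0 libraries at every later day, Fstl1 below them, and Bmper dipped on days 7 and 14, while Grem1 and Nog stayed at or below 20.3.

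The promoter windows of Chrd and Nbl1, higher on each later day than on day 0, and of Fstl1, Bmper and Fstl3, lower on each, are shown because they cover the called genes for which a window was matched. They are the 250 bases before the gene start in RefSeq, build GRCm38.p6, whereas the submitters' processing notes name mm9, and RefSeq windows were matched for 6 of the 9 genes (Grem1, Chrd, Fstl1, Fstl3, Nbl1 and Bmper). Each is given 5′ to 3′ on the strand of the gene, with capitals marking matches on either strand to the TATA box TATAAA, the box CCAAT, the GC box GGGCGG, the cyclic AMP response core TGACGT, the glucocorticoid receptor core AGAACA or the element GGCGCC described in BMP-responsive genes; the last may overlap a GC box.
Chrd, chr16:20732877-20733126, plus strand: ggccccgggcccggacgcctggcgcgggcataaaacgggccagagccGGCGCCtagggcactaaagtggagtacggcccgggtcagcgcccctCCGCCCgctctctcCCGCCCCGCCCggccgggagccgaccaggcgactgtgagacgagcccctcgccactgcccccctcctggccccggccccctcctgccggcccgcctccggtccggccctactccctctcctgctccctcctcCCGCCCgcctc
Nbl1, chr4:139092971-139093220, minus strand: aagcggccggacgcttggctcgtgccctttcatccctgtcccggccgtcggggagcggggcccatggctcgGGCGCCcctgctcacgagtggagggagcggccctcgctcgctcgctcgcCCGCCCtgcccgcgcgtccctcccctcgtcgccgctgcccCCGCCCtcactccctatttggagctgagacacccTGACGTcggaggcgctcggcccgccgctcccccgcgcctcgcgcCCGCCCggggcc
Fstl1, chr16:37776805-37777054, plus strand: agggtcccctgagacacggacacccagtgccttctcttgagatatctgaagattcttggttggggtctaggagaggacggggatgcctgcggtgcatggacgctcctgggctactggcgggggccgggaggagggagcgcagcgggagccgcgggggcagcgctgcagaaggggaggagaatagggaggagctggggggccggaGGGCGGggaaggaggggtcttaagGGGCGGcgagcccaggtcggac
Bmper, chr9:23222826-23223075, plus strand: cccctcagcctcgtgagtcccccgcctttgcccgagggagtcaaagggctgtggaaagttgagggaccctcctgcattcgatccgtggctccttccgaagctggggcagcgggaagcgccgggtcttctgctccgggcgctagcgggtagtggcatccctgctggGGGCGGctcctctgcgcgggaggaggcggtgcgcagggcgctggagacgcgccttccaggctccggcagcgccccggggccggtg
Fstl3, chr10:79777024-79777273, plus strand: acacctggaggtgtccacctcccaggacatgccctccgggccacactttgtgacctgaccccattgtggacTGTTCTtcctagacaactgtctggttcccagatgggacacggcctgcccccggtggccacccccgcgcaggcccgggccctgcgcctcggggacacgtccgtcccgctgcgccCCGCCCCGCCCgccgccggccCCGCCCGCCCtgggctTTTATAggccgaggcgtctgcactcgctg

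The 5 windows are GC-rich, at 78.0% in Chrd, 77.6% in Nbl1, 68.0% in Fstl1, 71.6% in Bmper and 71.2% in Fstl3, beside 72.0% in that of Grem1 and a median of 52.4% over 32851 windows of the same length. The GC box GGGCGG occurred in the windows of all 6 matched genes, 4 times in Chrd and Fstl3, 3 times in Nbl1 and Grem1, 2 times in Fstl1 and 1 time in Bmper, and in 32.7% of all windows. The letters GGCGCC occurred once each in Chrd, Nbl1 and the uncalled gene Grem1, and in 9.59% of all windows. The letters TGACGT occurred once in Nbl1 and in 6.47% of all windows. The TATA box (12.4% of windows) and the glucocorticoid receptor core (16.1%) each occurred once in Fstl3, and the CCAAT box (33.8%) once in Grem1. No share over windows of like GC content was computed. The shares over all windows therefore do not tell if matches to GGGCGG or GGCGCC exceed those of equally GC-rich windows. A match describes letters in this window and not a bound factor.

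The DAN and gremlin family held one abundant gene and one scarce gene. Nbl1, which encodes DAN, had 1991 and 2148 normalized counts on day 0, 4070.0 and 4408 on day 7, 4191 and 4684 on day 14, and 4689 and 4574 on day 21. Both libraries of each later day lay above both of day 0, and the 3 later days lay close together. Nbl1 was 2.05-fold higher on day 7 than on day 0 (log2 fold change 1.03 ± 0.10, SE; limma adjusted p = 1.92e-06), 2.14-fold on day 14 (1.10 ± 0.10; limma adjusted p = 6.08e-07) and 2.24-fold on day 21 (1.16 ± 0.10; limma adjusted p = 5.00e-07). None of its 3 comparisons among days 7, 14 and 21 passed the test (limma adjusted p = 0.595 for day 14 over day 7, 0.637 for day 21 over day 14 and 0.436 for day 21 over day 7).

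Grem1, the BMP antagonist gremlin that shapes limb buds, was near the lower limit of detection. It had 15.9 and 3.92 normalized counts on day 0, 8.2 and 12.5 on day 7, 12.8 and 8.18 on day 14, and 20.3 and 14.6 on day 21, which are 23, 23, 21 and 34 reads over the 2 libraries of each day. The libraries of days 7 and 14 fell within the range of day 0. At day 21 the mean was 17.4 ± 4.03 normalized counts, against 9.92 ± 8.49 on day 0 (SD, n = 2 each), and the difference was not called (log2 fold change 1.00 ± 0.54; limma adjusted p = 0.132). The day 0 value rested on single libraries, since the same comparison gave 1.89 (limma adjusted p = 0.0122) without library 1 of day 0 and 0.11 (limma adjusted p = 0.875) without library 2 of day 0. Nog, which encodes noggin, the classical BMP trap, had 6 reads on day 0, 2 on day 7, 8 on day 14 and 5 on day 21 over both libraries. The exact Poisson 95% intervals of these sums were 2.2 to 13.1, 0.242 to 7.22, 3.45 to 15.8 and 1.62 to 11.7 reads, covering counting error only. The ratio of Nog on day 7 to day 0 was 0.304 (95% counting interval 0.030 to 1.70), so a change in noggin was not detectable at this depth.

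Among the chordin-type antagonists, both chordin genes rose and Bmper fell and then recovered in part. Chordin, Chrd, binds BMPs through its von Willebrand factor C repeats and releases them when tolloid proteases cut it. It had 81.2 and 78.4 normalized counts on day 0, 194 and 221 on day 7, 190 and 167 on day 14, and 159 and 162 on day 21. All 6 later libraries lay above day 0, with the highest pair on day 7. Chrd was 2.58-fold higher on day 7 than on day 0 (log2 fold change 1.36 ± 0.15; limma adjusted p = 7.67e-06), 2.22-fold on day 14 (limma adjusted p = 1.88e-05) and 2.00-fold on day 21 (1.00 ± 0.15; limma adjusted p = 8.72e-05). Chrd on day 21 averaged 161 ± 2.33 normalized counts, against 208 ± 19.1 on day 7 (SD, n = 2 each), a difference that was not called (log2 -0.36 ± 0.15; limma adjusted p = 0.15). The strand of the libraries is not given in the sources used here, and in the GENCODE M21 annotation exons of Chrd overlap those of Thpo on the opposite strand. Thpo stood between 6.54 and 17.8 normalized counts in the 8 libraries and was not called against day 0 at any later day.

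Chrdl1, chordin-like 1 or ventroptin, showed the largest fold change of the 8 tested genes at each later day over day 0. It had 8.76 and 3.92 normalized counts on day 0, 70.1 and 63.3 on day 7, 234 and 144 on day 14, and 242 and 266 on day 21. The libraries of days 0, 7 and 14 did not overlap in that order, and both of day 21 lay above both of day 14. At day 7 it was 9.76-fold above day 0 (log2 fold change 3.29 ± 0.31; limma adjusted p = 2.04e-06), on day 14 26.6-fold (4.73 ± 0.31; limma adjusted p = 4.56e-08) and on day 21 36.8-fold (5.20 ± 0.31; limma adjusted p = 2.43e-08). The day 0 level came from 14 reads in all, and with 5 in place of 1 added before the logarithm the same values were 2.69, 4.09 and 4.55. Chrdl1 entered the test only through its later days, so a difference from day 0 was built into its selection. Between days 14 and 7, which that choice did not fix, Chrdl1 was 2.73-fold higher on day 14 (log2 1.45 ± 0.31; limma adjusted p = 0.00201). Day 21 averaged 254 ± 16.3 normalized counts, against 189 ± 63.9 on day 14 (SD, n = 2 each; limma adjusted p = 0.257).

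Bmper, a von Willebrand factor C protein that can restrain or promote BMP signalling and also binds chordin, moved the other way. It had 1798 and 1987 normalized counts on day 0, 606 and 793 on day 7, 631 and 525 on day 14, and 1469 and 1280.0 on day 21. Days 7 and 14 overlapped each other, and the 2 libraries of day 21 lay between those of day 14 and day 0. Bmper was 2.73-fold lower on day 7 than on day 0 (log2 fold change -1.45 ± 0.14; limma adjusted p = 2.76e-06) and 3.28-fold lower on day 14 (-1.71 ± 0.14; limma adjusted p = 3.36e-07). At day 21 it was 2.38-fold above day 14 (log2 1.25 ± 0.14; limma adjusted p = 1.66e-04) and 1.98-fold above day 7 (0.98 ± 0.14; limma adjusted p = 0.00116). The remaining difference on day 21 from day 0 was 1.38-fold lower (log2 -0.46 ± 0.14; limma adjusted p = 0.0123), and that call was lost without library 2 of day 0 (-0.39; limma adjusted p = 0.105) or without library 2 of day 21 (-0.36; limma adjusted p = 0.0929).

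**Figure D2:**
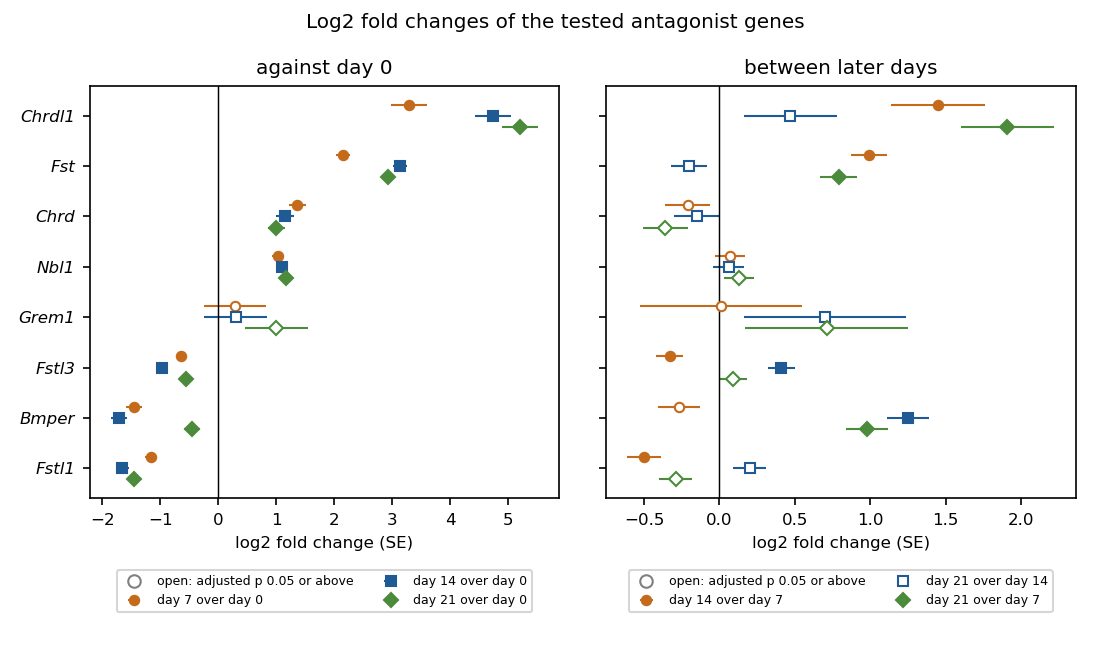
Log2 fold changes (horizontal axis) of the 8 tested antagonist genes with standard errors from the limma fit; the left panel sets days 7, 14 and 21 against day 0 and the right panel compares the later days, with filled symbols for an adjusted p below 0.05. Chrdl1, Fst, Chrd and Nbl1 lie right of 0 and Fstl3, Bmper and Fstl1 left of it on the left panel, while Bmper stands at 1.25 for day 21 over day 14.

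Follistatin rose and its relative Fstl3 fell. Fst encodes follistatin, the main activin trap, which also binds BMPs and myostatin. Fst had 308 and 309 normalized counts on day 0, 1345 and 1393 on day 7, 2857 and 2588 on day 14, and 2082 and 2683 on day 21. Days 14 and 21 overlapped, and both lay above day 7, which lay above day 0. Fst was 4.43-fold higher on day 7 than on day 0 (log2 fold change 2.15 ± 0.12; limma adjusted p = 1.94e-08), 8.79-fold on day 14 (3.14 ± 0.12; limma adjusted p = 4.52e-10) and 7.64-fold on day 21 (2.93 ± 0.12; limma adjusted p = 8.20e-10). The step on day 14 over day 7 was 1.99-fold (log2 0.99 ± 0.12; limma adjusted p = 6.44e-05), and day 21 did not differ from day 14 by this test (-0.20 ± 0.12; limma adjusted p = 0.202). With single libraries left out, the log2 fold change of day 21 over day 14 ranged from -0.39, without library 2 of day 21, to -0.02. The annotation places an antisense gene, Gm47040, over exons of Fst, and without the strand their reads cannot be told apart.

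Fstl3, a secreted follistatin-type protein that binds activins and myostatin and lacks the heparin-binding stretch of follistatin, had 2428 and 2589 normalized counts on day 0, 1532 and 1690 on day 7, 1302 and 1265 on day 14, and 1720 and 1702 on day 21. Day 14 was the lowest and day 0 the highest, without overlap. Fstl3 was 1.56-fold lower on day 7 than on day 0 (log2 fold change -0.64 ± 0.09; limma adjusted p = 8.19e-05), 1.95-fold lower on day 14 (-0.97 ± 0.09; limma adjusted p = 1.34e-06) and 1.47-fold lower on day 21 (-0.55 ± 0.09; limma adjusted p = 2.32e-04). Day 21 stood 1.33-fold above day 14 (log2 0.41 ± 0.09; limma adjusted p = 0.0055). The difference of day 14 from day 7, 1.25-fold lower (log2 -0.33 ± 0.09; limma adjusted p = 0.0104), was lost without library 2 of day 7 (-0.26; limma adjusted p = 0.134). Exons of Fstl3 overlap those of Prss57, a serine protease gene on the opposite strand, which averaged 1690 ± 26 normalized counts on day 0, 1075 ± 67.7 on day 7, 955 ± 32.7 on day 14 and 1172 ± 16.1 on day 21 (SD, n = 2 each). With the strand not given, reads of the 2 genes cannot be told apart.

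Fstl1, a secreted glycoprotein with a follistatin-type domain that has been reported to bind BMPs and is made in quantity by fibroblasts, was the most abundant of the 9 genes. It had 48014 and 46933 normalized counts on day 0, 21226 and 21209 on day 7, 16064 and 14027 on day 14, and 17037 and 17558 on day 21. Every later library lay below both of day 0, and the lowest was on day 14. Fstl1 was 2.24-fold lower on day 7 than on day 0 (log2 fold change -1.16 ± 0.11; limma adjusted p = 1.92e-06), 3.16-fold lower on day 14 (-1.66 ± 0.11; limma adjusted p = 4.56e-08) and 2.74-fold lower on day 21 (-1.46 ± 0.11; limma adjusted p = 1.85e-07). It was 1.41-fold lower on day 14 than on day 7 (log2 -0.50 ± 0.11; limma adjusted p = 0.00223), and neither day 21 over day 14 nor day 21 over day 7 passed the test (limma adjusted p = 0.158 and 0.112).

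The later days were also set against each other. At day 14 over day 7, Chrdl1 and Fst were higher and Fstl1 and Fstl3 lower, 4 of 9 genes, beside 52% of tested genes called (25% higher and 27% lower). At day 21 over day 14, Bmper and Fstl3 were higher and none of the 9 was lower, beside 34.5% of tested genes (20.2% higher and 14.3% lower). At day 21 over day 7, Chrdl1, Bmper and Fst were higher and none was lower, beside 8.74% of tested genes (5.46% higher and 3.28% lower). Fstl1 was called lower in that comparison with DESeq2 (log2 -0.29; adjusted p = 0.0418) and in limma without library 1 or 2 of day 14 (adjusted p = 0.0439 and 0.0441). Over single libraries left out, the 4664 genes called on day 21 over day 14 became 2303 without library 2 of day 21 and 2561 without library 2 of day 14. The 1182 called on day 21 over day 7 became 262 and 299 without library 1 or 2 of day 7, 521 without library 1 of day 21, 731 and 735 without library 1 or 2 of day 0, and 2169 and 2173 without library 1 or 2 of day 14. The calls of Bmper and Fstl3 on day 21 over day 14, and of Chrdl1, Bmper and Fst on day 21 over day 7, held with each library left out.

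Values per kilobase of exon allow levels to be compared between genes. At day 0 the order of mean normalized counts per kilobase was Fstl1 at 9661, Fstl3 at 1026, Nbl1 at 1018, Bmper at 392, Fst at 67.2, Chrd at 12.8, Grem1 at 2.39, Nog at 1.56 and Chrdl1 at 0.938. Fstl3 and Nbl1 overlapped, as did Grem1, Nog and Chrdl1. At day 21 the order was Fstl1 at 3520.0, Nbl1 at 2278, Fstl3 at 700, Fst at 519, Bmper at 284, Chrdl1 at 37.6, Chrd at 25.7, Grem1 at 4.20 and Nog at 1.52, with neighbouring genes not overlapping between libraries. Per kilobase of the longest transcript, however, Fst had 713 and 918 and Fstl3 880 and 871 on day 21, so the order of that pair was not resolved. Fstl1 made up 47.5 and 48.0% of the summed level of the 9 genes on day 21, against 80.1 and 78.5% on day 0. Nbl1 made up 31.6 and 30.2% on day 21, against 8.03 and 8.69% on day 0, and Fst 6.21 and 7.86% on day 21, against 0.550 and 0.553% on day 0. Fstl3 stayed between 7.96 and 9.63% in all 8 libraries. These shares describe RNA and depend on the exon lengths taken from GENCODE.

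**Figure D3:**
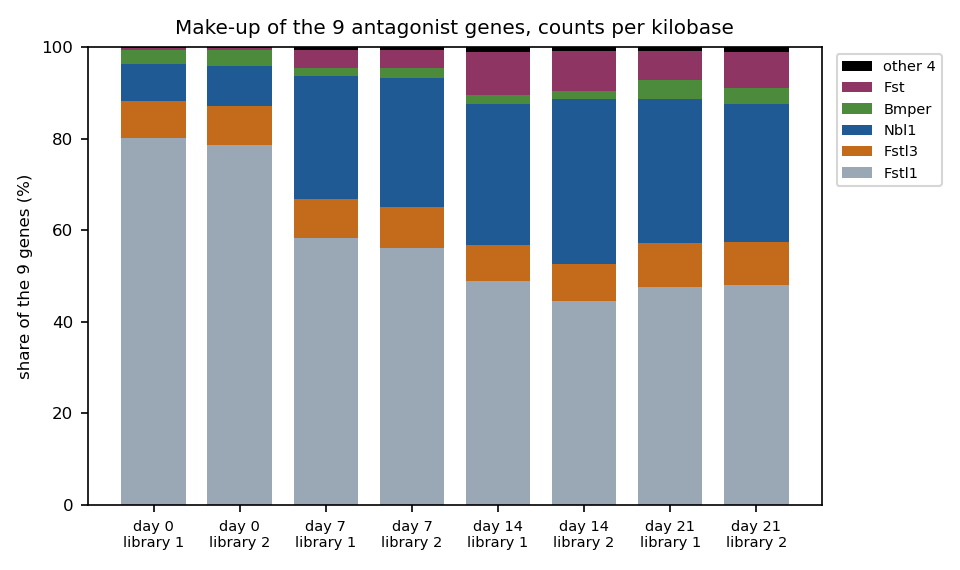
Share of each gene (vertical axis, percent) in the summed normalized counts per kilobase of the 9 antagonist genes, 1 bar per library in order of day. The Fstl1 share was 44.6 to 58.3% in the 6 later libraries and 78.5 to 80.1% on day 0, while those of Nbl1 and Fst were larger at every later day.

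Of the genes for activin-type ligands, which follistatin captures, Inhba and Gdf11 were lower at every later day than on day 0. Inhba, the subunit of activin A, had 974 and 846 normalized counts on day 0, 281 and 201 on day 7, 155 and 65.4 on day 14, and 181 and 176 on day 21. It was 3.8-fold lower on day 7 than on day 0 (log2 fold change -1.93 ± 0.30; limma adjusted p = 1.41e-04), 8.93-fold lower on day 14 (limma adjusted p = 1.16e-06) and 5.07-fold lower on day 21 (limma adjusted p = 2.31e-05). Inhbb, the subunit of activin B, was lower on day 14 than on day 0 (log2 -0.68 ± 0.14; limma adjusted p = 7.33e-04), and averaged 2294 ± 0.408 normalized counts on day 0, 2437 ± 175 on day 7, 1443 ± 287 on day 14 and 2579 ± 407 on day 21 (SD, n = 2 each). Gdf11, a related ligand, was 1.53-fold lower on day 7, 2.65-fold on day 14 and 1.58-fold on day 21 than on day 0 (limma adjusted p = 0.0130, 2.06e-05 and 0.00790). Inha, whose inhibin product opposes activin, rose to 82.0 ± 6.4 normalized counts on day 14, against 13.3 ± 0.326 on day 0 (SD, n = 2 each; log2 2.53 ± 0.24; limma adjusted p = 1.43e-06). Of 7 activin-type ligand genes, 4 were tested, with 1 higher and 2 lower on days 7 and 21 and 1 higher and 3 lower on day 14 against day 0. Over all tested genes 55.4, 70.7 and 59.4% were called on days 7, 14 and 21 over day 0.

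Ratios within a library do not depend on scaling between libraries. Per kilobase, Fst stood at 0.441 and 0.508 of Inhba on day 0, 6.65 and 9.63 times Inhba on day 7, 25.7 and 55.1 times on day 14, and 16.1 and 21.2 times on day 21. Against Inhbb the ratio was 0.125 in both libraries of day 0, 0.539 and 0.504 on day 7, 1.61 and 1.93 on day 14, and 0.842 and 0.868 on day 21. Against Fstl3 it was 0.0676 and 0.0635 on day 0, 0.468 and 0.439 on day 7, 1.17 and 1.09 on day 14, and 0.645 and 0.840 on day 21. In all 3 ratios the day 14 libraries were the highest and the day 0 libraries the lowest.

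**Figure D4:**
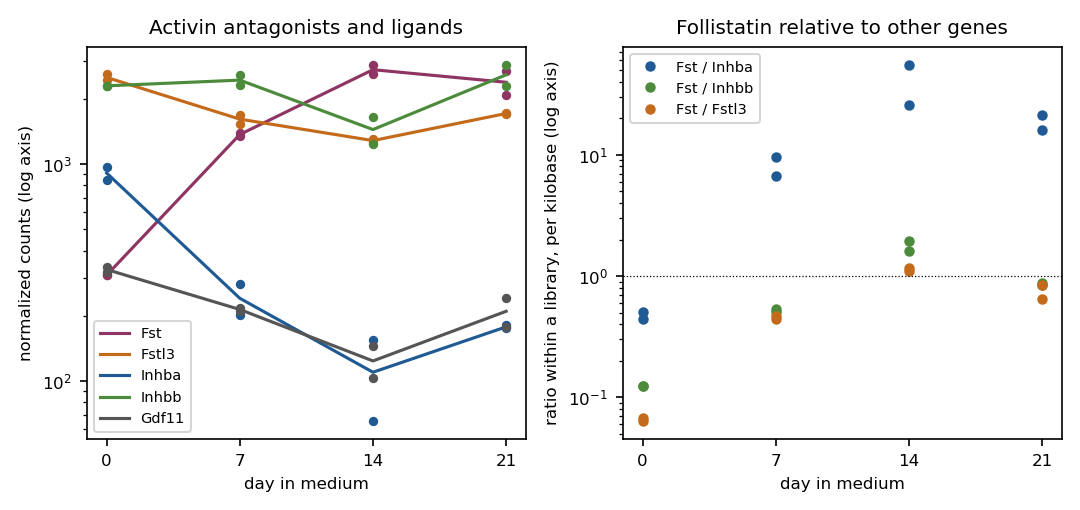
Left, normalized counts on a log axis of the activin antagonists Fst and Fstl3 and the ligand genes Inhba, Inhbb and Gdf11 against day in medium, with points for libraries and lines through the means. Right, the ratio of Fst to Inhba, Inhbb and Fstl3 per kilobase within each library on a log axis, where the Fst to Inhba ratio lies at 25.7 and 55.1 on day 14 and 0.441 and 0.508 on day 0.

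BMP ligands and the machinery around chordin changed gene by gene. Gdf6, the ligand gene with the most reads of those tested, was 3.01-fold lower on day 7 than on day 0, 5.50-fold on day 14 and 4.14-fold on day 21 (limma adjusted p = 1.56e-07, 1.84e-09 and 1.15e-08). Bmp3, which is known for opposing other BMPs in bone, averaged 20.6 ± 12.5 normalized counts on day 0, 140 ± 17.4 on day 7, 186 ± 33.3 on day 14 and 218 ± 56.9 on day 21 and was higher at each later day (SD, n = 2 each; limma adjusted p = 1.43e-05, 2.52e-06 and 2.00e-06). Bmp4 averaged 437 ± 27.6 normalized counts on day 0, 671 ± 43.2 on day 14 and 700 ± 198 on day 21 (SD, n = 2 each; limma adjusted p = 0.00418 and 0.00391). Bmp6 averaged 1378 normalized counts on day 0, 3260 on day 7, 1451 on day 14 and 1910 on day 21. It was called higher than on day 0 on days 7 and 21 (limma adjusted p = 8.56e-06 and 0.012) and not on day 14 (limma adjusted p = 0.669). Of 14 BMP ligand genes 6 were tested, and 2, 3 and 4 were higher and 1 lower on days 7, 14 and 21 over day 0, beside 27.5, 35.2 and 29.8% of all tested genes higher. With the length and GC trend removed 2, 2 and 3 were higher. Bmp2, called higher on days 14 and 21, had 15.9 and 9.15 normalized counts on day 0 and entered the test through later days. Tll1, a tolloid protease that cuts chordin, was 5.48-fold lower on day 7 than on day 0, 5.98-fold on day 14 and 5.08-fold on day 21 (limma adjusted p = 1.37e-07, 4.82e-08 and 1.45e-07). The far more abundant protease gene Bmp1 averaged 8467 ± 590 normalized counts on day 0, 11638 ± 985 on day 7, 7142 ± 471 on day 14 and 10579.7 ± 1411 on day 21 (SD, n = 2 each), and was higher on days 7 and 21 (limma adjusted p = 0.00532 and 0.0338). Olfml3, described in the frog as a scaffold that brings this protease to chordin, was 3.82-fold higher on day 21 than on day 0 (log2 1.93 ± 0.11; limma adjusted p = 2.01e-08).

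Antagonists outside the 9 were called in both directions. Of 18 such genes 11 were tested, and 6, 4 and 6 were higher and 2, 2 and 3 lower on days 7, 14 and 21 over day 0, beside 55.4, 70.7 and 59.4% of all tested genes called. Fstl4, higher on days 7 and 21, and Vwc2, higher on day 14, entered the test only through later days. Kcp, lower on day 21, entered it only with its day 0 libraries. A difference from day 0 was thus built into the selection of Fstl4, Vwc2 and Kcp. Smoc2, a matricellular protein whose relative Smoc1 blocks BMP signals in the frog, had 331 and 403 normalized counts on day 0, 3419 and 3522 on day 7, 4218 and 3610 on day 14, and 4809 and 4956 on day 21. It was 9.48-fold higher on day 7, 10.7-fold on day 14 and 13.3-fold on day 21 than on day 0 (limma adjusted p = 4.08e-10, 1.74e-10 and 1.04e-10). Crim1, a membrane protein that tethers BMPs, was 4.23-fold lower on day 14 than on day 0 (log2 -2.08 ± 0.16; limma adjusted p = 2.54e-07), and Tsku was 1.90-fold lower on day 7 (log2 -0.93 ± 0.12; limma adjusted p = 4.71e-05).

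Genes that BMP signalling is known to induce were higher in the same libraries. Of 9 such genes 7 were tested, and 6 were higher on day 7, 7 on day 14 and 7 on day 21 over day 0, with none lower, beside 27.5, 35.2 and 29.8% of all tested genes higher. On day 14 the count was 6 with edgeR and with the length and GC trend removed. Their median log2 fold change was 1.32, 2.14 and 2.04, beside -0.01, 0.00 and 0.00 over all tested genes. Id1, an inhibitor of basic helix-loop-helix factors, had 697 and 591 normalized counts on day 0, 2407 and 2475 on day 7, 3033 and 3710 on day 14, and 2938 and 2708 on day 21. It was 3.8-fold higher on day 7 than on day 0 (log2 1.93 ± 0.12; limma adjusted p = 4.50e-08), 5.22-fold on day 14 (limma adjusted p = 3.70e-09) and 4.39-fold on day 21 (limma adjusted p = 1.20e-08). Id2, Id3 and Id4 rose as well, by 5.44-fold, 4.41-fold and 8.83-fold on day 14 over day 0 (limma adjusted p = 4.30e-10, 7.51e-09 and 6.87e-07). Msx2 and Dlx5 had too few reads to test. These genes also respond to other pathways, and the part of any antagonist in their levels was not tested.

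Among the 13 receptor and co-receptor genes 11 were tested, and 10 were lower on day 14 than on day 7 while 10 were higher on day 21 than on day 14. Of all tested genes 27% were lower on day 14 than on day 7 and 20.2% higher on day 21 than on day 14. In those comparisons the log2 fold change had an average slope on exon length of -0.30 and 0.19 log2 units per doubling, over 13421 tested genes with a length. After removal of the length and GC trend, 9 receptors were lower on day 14 than on day 7 and 10 higher on day 21 than on day 14. In comparisons with day 0, 4, 1 and 3 of the 11 receptors were higher and 2, 7 and 3 lower on days 7, 14 and 21. With the length and GC trend removed these counts were 2, 1 and 2 higher and 2, 6 and 2 lower. Over all tested genes 55.4, 70.7 and 59.4% were called. Bmpr1b was 10.8-fold, 7.54-fold and 13.1-fold lower on these days, but passed the count filter only through its day 0 libraries. Acvr1 and Rgma were 2.1-fold and 2.08-fold lower on day 14. Against day 0, the inhibin co-receptor gene Tgfbr3 was 5.13-fold higher on day 7, 2.95-fold on day 14 and 5.20-fold on day 21 (limma adjusted p = 6.04e-09, 1.35e-07 and 3.89e-09). Smad6, an inhibitory Smad that BMP signals induce, was 2.32-fold higher on day 7, 2.30-fold on day 14 and 3.08-fold on day 21 (limma adjusted p = 5.94e-06, 3.60e-06 and 3.34e-07). Smad3, a transducer of activin and TGF-beta signals, was 1.93-fold lower on day 7, 4.24-fold on day 14 and 2.65-fold on day 21 (limma adjusted p = 1.39e-05, 7.75e-09 and 3.23e-07). Of the 11 Smad and inhibitor genes, 4, 3 and 3 were higher and 3, 6 and 3 lower on days 7, 14 and 21 over day 0, beside the 55.4, 70.7 and 59.4% called over all tested genes. The counts of antagonists called in each comparison were the same after removal of the trend.

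**Figure D5:**
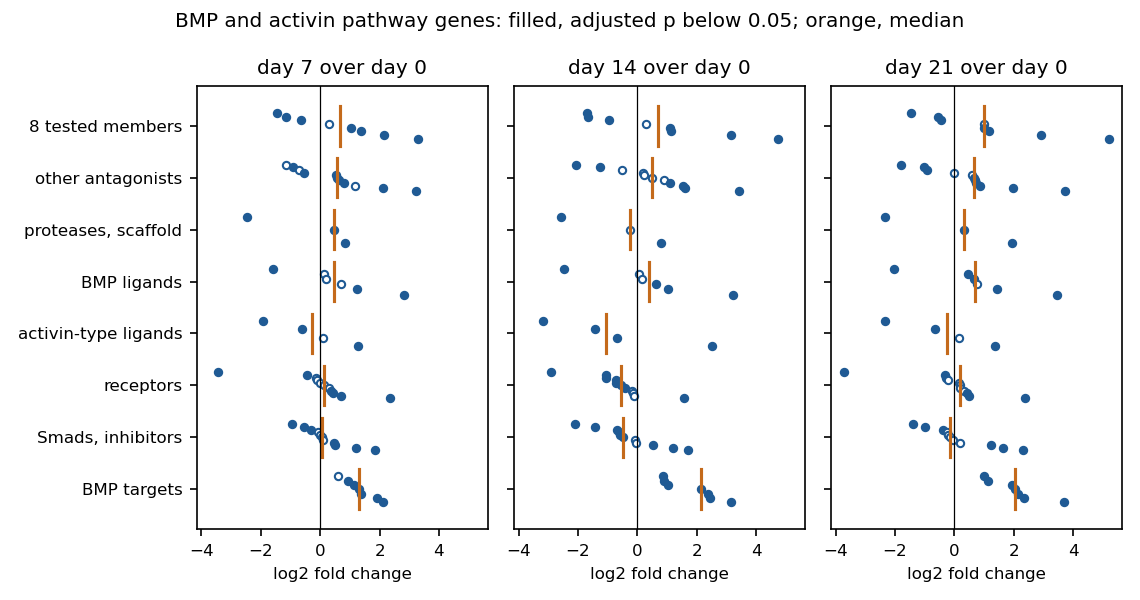
Log2 fold changes (horizontal axis) on days 7, 14 and 21 over day 0 of tested genes in the antagonist group and in 7 other lists of the pathway, 1 point per gene, filled where the adjusted p was below 0.05, with the list median in orange. BMP target genes lie to the right of 0 at each day, with medians of 1.32, 2.14 and 2.04, while the antagonists spread to both sides.

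Other genes with the most similar profiles were found by the Pearson correlation of log2 values over the 8 libraries, which fall into 4 times and so share most of their variation. The nearest to Fst were Ankrd35, Cyp7b1 and N4bp2l1 at 0.998, 0.997 and 0.996. For Fstl1 they were Msh6, Ltbp1 and Cdh10, each at 0.998. Ltbp1, a latent TGF-beta binding protein, averaged 4285 normalized counts on day 0, 788 on day 7, 389 on day 14 and 583 on day 21. For Fstl3, Dhcr7, an enzyme of cholesterol synthesis, stood at 0.998. For Nbl1 they were Nudt4, Rab3il1 and Gstm2, each at 0.996. For Chrdl1 they were Wnk4, Smarca1 and Gpc3 at 0.994, 0.993 and 0.991, and for Chrd, Dclre1b and Ngly1 stood at 0.987 and 0.985. Bmper was nearest to Slc39a1, Lif and Tgfbi at 0.987, 0.981 and 0.980. Of 12666 genes compared, 123 reached 0.9 with Bmper, against 929 with Chrd, 1361 with Chrdl1, 1447 with Fstl3, 1552 with Nbl1, 1727 with Fst and 1804 with Fstl1.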

How the data were processed

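Total RNA was prepared with a column kit and sequenced from Illumina libraries, per the labels' protocols. The table the authors deposited holds a scaled signal for 24015 symbols, in which reads had been divided by 1 size factor per library. Per the submitters' processing notes, TopHat2 2.0.11, HTSeq 0.6.1 and DESeq were used with mm9; the sources used here give no roles, annotation or strand. Every value was a whole multiple of 1 read within 0.01 reads (100%), so reads were recovered. The 13527 genes that reached 10 normalized counts in 2 or more libraries were fitted on log2(value + 1) with limma 3.58.1 (trend, 4 residual and 8.16 prior degrees of freedom), in 6 comparisons with Benjamini-Hochberg adjustment. Fold changes are on that scale. On recovered reads, edgeR 4.0.16 called 7581, 9633, 8055, 7167, 4820 and 1361 genes for days 7, 14 and 21 over 0, 14 over 7, 21 over 14 and 21 over 7. DESeq2 1.42.0 was also run. Exon lengths came from GENCODE M21, matched for 98.4% of symbols. Fits ran in R 4.3.3 and were tested on simulated data; tables and figures were made in Python 3.11.15.

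Members and lists were chosen with earlier results of these data known. Named list genes are up to 4 called genes of largest change and 2 uncalled genes of highest level per list and comparison, of which the text gives examples; similar profiles are the tested genes with the 3 highest correlations to each antagonist that averaged at least 50, predicted gene models left out, some of which are not reported here. Alternatives were another pseudocount, filter, scaling or tool, only the 2 times compared, the replicate block, length and GC removal, and each library left out. Replicate libraries differed beyond counting noise (chi-square over degrees of freedom 4.91, 3.48, 19.0 and 18.6 from day 0 to day 21).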

Additional observations from a re-analysis of the deposited data

How the results depend on the processing

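Of 952 recomputed log2 fold changes of the 8 tested antagonists, 923 kept their direction and side of the threshold, 3 lost the call, 8 gained one and 18 changed sign; the cause was not tested, and no called value changed sign. The sign changes were for Grem1 with edgeR (-0.07 at day 7 and -0.03 at day 14 over day 0) and DESeq2 (-0.01 at day 7 over day 0), and for Nbl1 with upper-quartile scaling (-0.01 at day 21 over day 14). With the length and GC trend removed, with or without the replicate block, they were for Grem1 (-0.10), Nbl1 (-0.10) and Chrd (0.09) at day 14 over day 7 and Fstl3 (-0.00) at day 21 over day 7. With single libraries left out, Grem1 ranged from -0.60 to 1.18 and from -0.59 to 1.19 at days 7 and 14 over day 0 and from -0.28 to 0.30 at day 14 over day 7. Nbl1 ranged from -0.02 to 0.15 at day 14 over day 7 and from -0.02 to 0.14 at day 21 over day 14. Genes called at day 21 over day 14 numbered 2635 with only the 2 times compared, 3017 without the length and GC trend, 2849 when the block was added, and 2303 to 5750 with single libraries left out. For day 21 over day 7 they numbered 739 with no filter, 728 without the trend, 626 without the trend and with the block, and 262 to 2173 with single libraries left out. Adding the replicate block left 7, 7, 7, 4, 2 and 3 antagonists called in the 6 comparisons, as without it, and 949 genes at day 21 over day 7 beside 1182. Deviations of library 1 from the mean of its day correlated at -0.04 to 0.07 between times, so no effect shared by replicate number was seen. These correlations cannot tell whether the libraries were paired, since a pairing with a small effect would give the same values. With the longest transcript in place of all exons, 28 of 36 levels per kilobase moved by more than 1 SD. Depth limits Nog and Grem1.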
